A study of Glycyrrhiza uralensis with 48 samples.

Results

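The drought response of the underground part of licorice seedlings (Glycyrrhiza uralensis) that were fed silicate was measured by RNA sequencing in 6 of the 48 libraries of the series. The 3 drought libraries came from seedlings held at 35 to 45% of saturation moisture and the 3 control libraries from seedlings given distilled water, and both groups received 2 mM silicon as potassium silicate (K2SiO3). All seedlings were 45 days old and had been grown from seed in sterilised desert sand that held no nutrients. The other groups used for comparison were underground control and drought without silicate, underground salt (75 mM NaCl) and salt-drought with and without silicate, and the aerial parts of the same treatments, each with 3 libraries. The labels do not say how many plants or pots a library stands for, so p-values measure the spread between libraries, which may be technical. All 38463 rows of the deposited table were considered, 34445 of them annotated genes and 4018 new-gene rows without coordinates.

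Drought lowers the water potential around a root, and plants answer with abscisic acid signalling, osmolyte synthesis, altered aquaporin activity and a changed balance between growth and storage. Silicon is taken up from the soil solution as silicic acid through aquaporin-like channels, and silicon supply is widely studied as a means to ease drought and salt stress. The underground organs of licorice are the source of glycyrrhizin, the sweet triterpene saponin of the drug. The files give no gene names or functions, so genes are described by identifier, position, structure and expression.

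Values are FPKM (fragments mapped to a transcript, scaled by its length and by the depth of the library), given as mean ± SD over 3 libraries. Changes are differences of log2(FPKM + 1) with their standard error (SE), on which changes of weakly expressed genes come out too small. A gene was called changed at an adjusted p under 0.05 (limma with Benjamini-Hochberg adjustment over all genes tested). In bulk tissue, fewer cells of a type and less RNA per cell cannot be told apart.

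The libraries carried the underground label's expression pattern. All 33 underground markers (abundant below ground, at most 1% of that level in unstressed aerial parts) were above 0 in each of the 6 libraries, with medians from 459.5 to 726 FPKM, and between 21228 and 21738 genes reached 1 FPKM in each. Depth was estimated roughly at 18450000 to 32000000 fragments. The 3 drought libraries correlated with each other at a mean r of 0.963 to 0.965 over the genes tested, and with the drought libraries without silicate at 0.960 to 0.967. RNA typical of aerial parts was low, and higher in the 3 drought libraries than in the 3 control libraries. The 25 aerial markers (at least 100 FPKM in every aerial group, at most 1% of the aerial level in underground controls without silicate) stood at a median of 1.51, 1.63 and 1.35% of their aerial level in drought libraries 1, 2 and 3, against 0.564, 0.367 and 0.652% in control libraries 1, 2 and 3. Their summed level was 226 to 300.1 FPKM in drought and 76.1 to 120.0 FPKM in controls, with no marker at 0 in any of the 6 libraries and none of the 25 called. Without silicate the same median was 1.58, 1.57 and 2.05% in underground drought and 0.653, 0.158 and 0.215% in control. The markers were chosen for a low level in these 3 controls without silicate, so the gap without silicate is partly fixed by that choice. The median also varied widely within a treatment, at 0.294, 3.77 and 0.526% in the 3 underground salt-drought libraries without silicate. The part of aerial RNA in the results below was not tested.

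The underground response of silicate-fed seedlings to drought was mainly a loss of transcripts. Of 24478 genes tested, 251 changed (1.03%), with 230 falling (0.94%) and 21 rising (0.0858%). The genes that fell dropped to a median of 36.0% of their control level (quartiles 23.0 to 52.4%), and 154 of them fell by at least 1 log2 unit and 38 by at least 2. In control seedlings they stood at a median of 32.1 FPKM, and 39 of them exceeded 100 FPKM there. The genes were called on these same control values, and the log2(FPKM + 1) scale gives weakly expressed genes little room to fall. These levels are therefore partly set by the choice of genes, and the same values over all genes tested were not counted. The genes that rose did so by a median of 1.68-fold, 6 of 21 by at least 1 log2 unit and none by 2 or more. In all 251 genes the 3 drought values lay beyond the 3 control values, as they did in 16.7% of all genes tested. The median over all genes tested moved by 0.02 log2 units. At an unadjusted p under 0.05 the split was less uneven, with 1327 genes lower and 1042 higher.

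The size of this response depended on single libraries. The number of genes called was 134, 105 and 167 without control library 1, 2 or 3. It was 91 without drought library 2, 91 without drought library 3 and 311 without drought library 1. With only the 2 groups in the fit, 123 genes were called, 84 of them among the 251. Falls outnumbered rises in each of these fits, from 80 lower and 11 higher without drought library 2 to 291 lower and 20 higher without drought library 1.

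**Figure D1:**
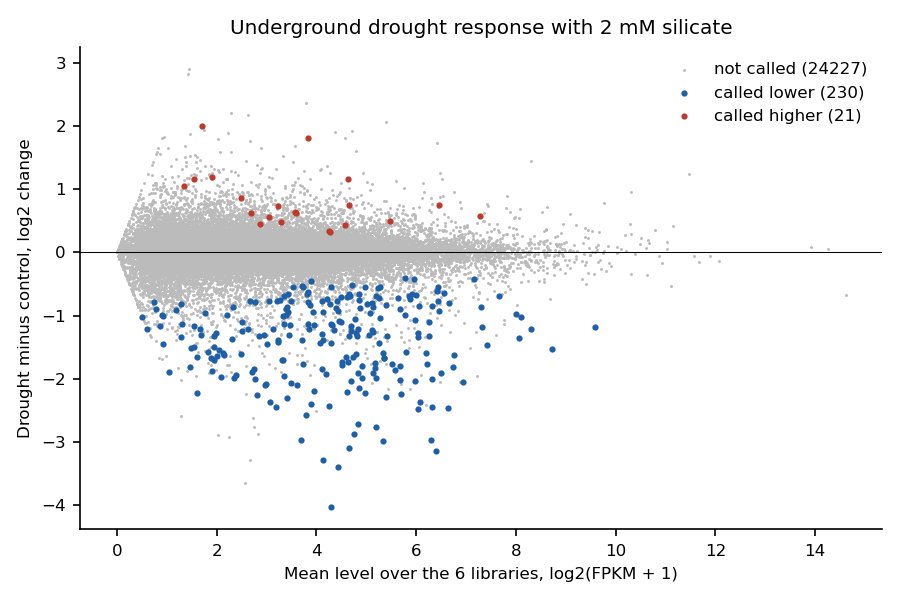
Each point is one of the 24478 genes tested, with its mean level over the 6 libraries on the x axis (log2(FPKM + 1)) and its log2 change with drought on the y axis. The 230 genes called lower (blue) reach from the low to the high end of expression, and the 21 called higher (red) stay under 2 log2 units.

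The largest fall was in Glyur000529s00019343, a single-exon gene on the plus strand of Scaffold00529 at 58811 to 59434. It stood at 120.4, 61.4 and 64.5 FPKM in the 3 control libraries and at 11.8, 1.35 and 2.77 FPKM in the 3 drought libraries. Every drought value lay under every control value, and drought library 1 was the highest of its group. The change was -4.03 (SE 0.69, adjusted p = 0.00498, limma). The second largest was in Glyur000149s00009546 (Scaffold00149, 30843 to 31418, minus strand, single exon), at 89.1, 66.0 and 55.5 FPKM in control and 8.96, 2.48 and 7.39 FPKM in drought. The 2 groups did not overlap, and the change was -3.40 (SE 0.60, adjusted p = 0.00672, limma). This gene lost its call without drought library 2 (adjusted p = 0.0588, limma).

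The other stresses with silicate share the control libraries with drought, and both genes were low there. Glyur000529s00019343 was at 10.8 ± 13.3 FPKM in salt and 1.50 ± 0.639 FPKM in salt-drought, and Glyur000149s00009546 at 5.70 ± 7.12 and 2.03 ± 0.559 FPKM. In salt their libraries were uneven, since library 3 held 26.1 and 13.9 FPKM and the other two at most 4.22 and 2.39 FPKM. Their controls differed with silicate, at 82.1 ± 33.2 FPKM with it and 229 ± 67.0 FPKM without it for Glyur000529s00019343. For Glyur000149s00009546 the controls were at 70.2 ± 17.2 and 167 ± 6.32 FPKM. Neither of these silicate differences was called (adjusted p = 0.522 and 0.547, limma).

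Among the rises, Glyur001180s00029551 (Scaffold01180, 27697 to 28587, plus strand, single exon) changed most. It was at 0.0921, 0.418 and 1.80 FPKM in control and 6.46, 6.49 and 3.92 FPKM in drought, with no overlap (2.00, SE 0.40, adjusted p = 0.0146, limma). It lost its call without control library 1 or 2, without drought library 2 and with only the 2 groups in the fit (adjusted p from 0.0846 to 0.0931, limma). Glyur000017s00002449 (Scaffold00017, 494285 to 494605, minus strand, single exon) was at 6.47, 4.80 and 9.01 FPKM in control and 23.9, 30.0 and 23.4 FPKM in drought (1.81, SE 0.41, adjusted p = 0.0348, limma). All drought values were above all control values. Its change stayed between 1.62 and 2.02 in every alternative, but its adjusted p passed 0.05 without any one of the 6 libraries (0.0520 to 0.186, limma) and without a filter on low values (0.0530).

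**Figure D2:**
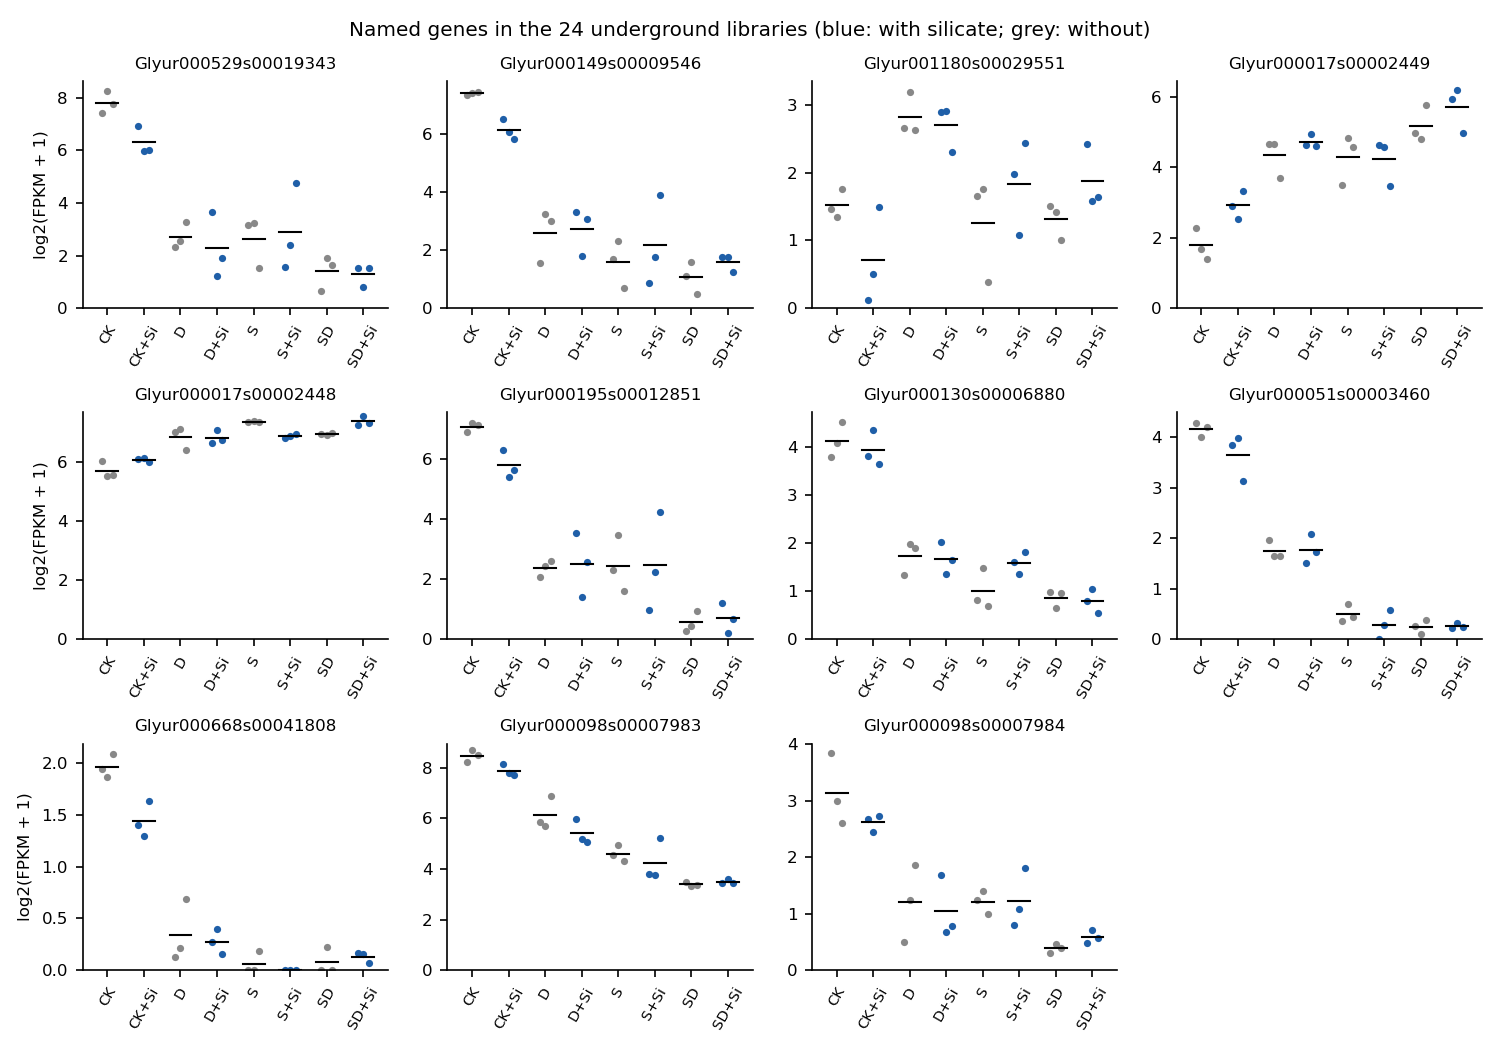
Each panel shows log2(FPKM + 1) of one named gene in the 24 underground libraries, 3 per group, with the mean of the log2 values as a black line; blue marks silicate and grey no silicate (CK control, D drought, S salt, SD salt-drought). Among the genes called lower, Glyur000529s00019343 falls from a mean of 82.1 FPKM in control with silicate to 5.29 FPKM in drought with silicate, beside 229 and 5.83 FPKM without silicate.

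Drought without silicate, measured in 6 other underground libraries, moved most of the same genes. Of the 230 genes that fell with silicate, 223 were also lower without it (97.0%, against 44.7% of all genes tested), and 188 were called lower there (81.7%, against a background of 2.23%). These 188 made up 34.5% of the 545 genes that fell without silicate. Of the 21 genes that rose, 17 were higher without silicate (81%, against 55.2% of all genes tested). Of these 21 genes, 10 were called higher there (47.6%, against a background of 1.21%), which is 3.37% of the 297 rises without silicate. No gene was called in opposite directions. All underground libraries entered the same fit, so a gene with a small spread is called more easily in both responses. The overlap in calls is therefore partly built in, while the direction of a change does not depend on the spread. Across all 24478 genes the 2 responses correlated with a Pearson r of 0.45 and a Spearman rho of 0.30. This is a description, since genes are not independent and the 2 responses come from one experiment.

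The median level of the 230 genes under drought was close with and without silicate. It was 12.4 FPKM in drought with silicate and 12.9 FPKM without, from controls of 32.1 and 39.6 FPKM. The genes were chosen on the libraries with silicate, so that choice shapes the medians with silicate more than those without. Library by library, the medians were 15.2, 9.84 and 10.6 FPKM in drought with silicate, against 32.4, 34.8 and 31.0 FPKM in its controls. That gap was fixed by the choice of genes. Drought library 1 was thus the least lowered. The same library stood out in the 545 genes called lower without silicate, a list chosen on changes between other libraries of the same fit. Their median change was -0.48 in drought library 1, against -0.70 and -0.71 in drought libraries 2 and 3.

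**Figure D3:**
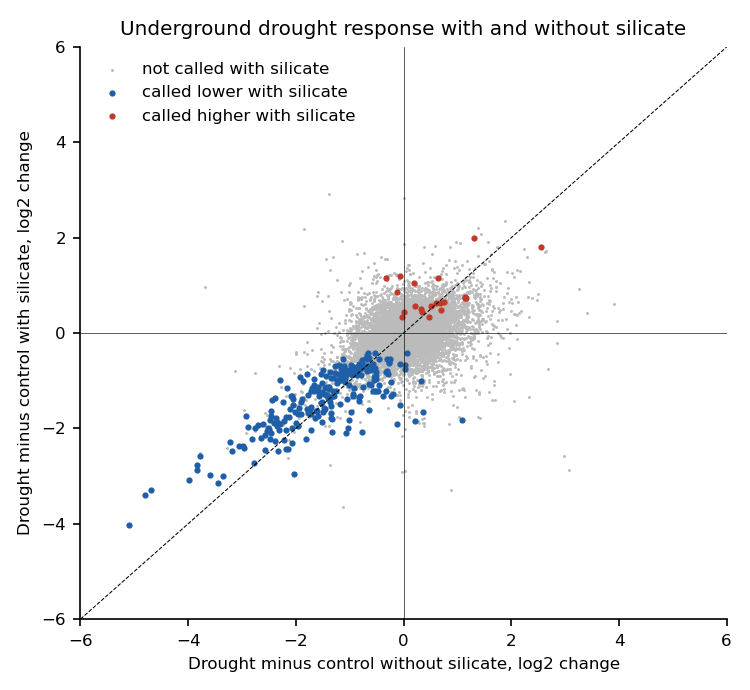
Each point is a gene, with its underground drought change without silicate on the x axis and with silicate on the y axis (both log2), and the dashed line marks equal changes. The genes called lower with silicate (blue) lie almost all at the lower left, where 223 of 230 have the same sign in both.

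The genes that changed most in both were partly those named above. For falls they were Glyur000529s00019343 (-5.09 without silicate, SE 0.69, adjusted p = 0.000166, limma) and Glyur000149s00009546 (-4.80, SE 0.60, adjusted p = 8.81e-05). For rises they were Glyur000017s00002449 and its neighbour on the scaffold, Glyur000017s00002448 (471930 to 472385, plus strand, single exon). Glyur000017s00002449 rose by 2.55 without silicate (SE 0.41, adjusted p = 0.000895, limma). Glyur000017s00002448 was at 68.3, 69.6 and 63.8 FPKM in control with silicate and at 99.7, 136.5 and 108 FPKM in drought with silicate, with no overlap. It rose by 0.75 with silicate (SE 0.16, adjusted p = 0.0265, limma) and by 1.15 without (SE 0.16, adjusted p = 0.000287). With silicate its call was lost without any one library other than drought library 1 and with only the 2 groups in the fit (adjusted p from 0.0764 to 0.180, limma).

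Whether the response itself differed with silicate was tested as an interaction, and no gene was called (limma; smallest adjusted p = 0.141). At an unadjusted p under 0.05 there were 1646 genes, 6.72% of those tested. The interaction was 1.06 (SE 0.97) for Glyur000529s00019343 and 1.40 (SE 0.85) for Glyur000149s00009546, with neither called. The count was 4 with only the 4 groups in the fit, 2 without underground control library 1, 2 without silicate drought library 2 and 1 without silicate drought library 1. Of the 230 genes, 42 were not called without silicate, and 35 of these were lower there, as were 44.7% of all genes tested. For the genes called in aerial parts without silicate, a choice that uses none of the underground libraries, the median underground change was smaller with silicate. It was -0.32 with and -0.46 without silicate for the 376 tested genes that fell in aerial drought, and 0.14 and 0.28 for the 383 that rose. Aerial and underground libraries without silicate that share a number deviated together (r from 0.24 to 0.32 in controls and 0.09 to 0.35 in drought), and the part of this in the difference was not tested. For the 27 genes that fell in aerial drought with silicate the medians were -1.13 and -1.26.

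Salt and salt-drought without silicate lowered most of these genes. Their changes share no library with the silicate-fed drought change, but all underground libraries entered the same fit. A gene with a small spread in that fit is called more easily in every comparison, so the overlap in calls is partly built in. Direction does not depend on the spread. Of the 230 genes, 226 were lower in salt (98.3%, against 44.5% of all genes tested) and 225 in salt-drought (97.8%, against 39.6%). Of the 230 genes, 209 were called lower in salt (90.9%, against a background of 8.35%) and 210 in salt-drought (91.3%, against 9.95%), and 1 was called higher in each. In all, 182 of the 230 were called lower in drought, salt and salt-drought without silicate, and 14 in none of these. These 3 stresses were all compared with the same control libraries without silicate, so their calls are not independent of each other. The share of all genes tested that was called in all 3, or in none, was not counted. Of the 21 rises, 11 were called higher in salt (background 9.64%) and 13 in salt-drought (background 17.1%), and 7 in none of the 3 stresses. The 230 made up a small share of the longer salt and salt-drought lists, at 10.2% of the 2043 falls in salt and 8.62% of the 2436 in salt-drought. Within the 230 the levels stepped down across the stresses, with median FPKM of 10.7 in salt and 8.01 in salt-drought without silicate and 10.6 and 6.83 with it.

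**Figure D4:**
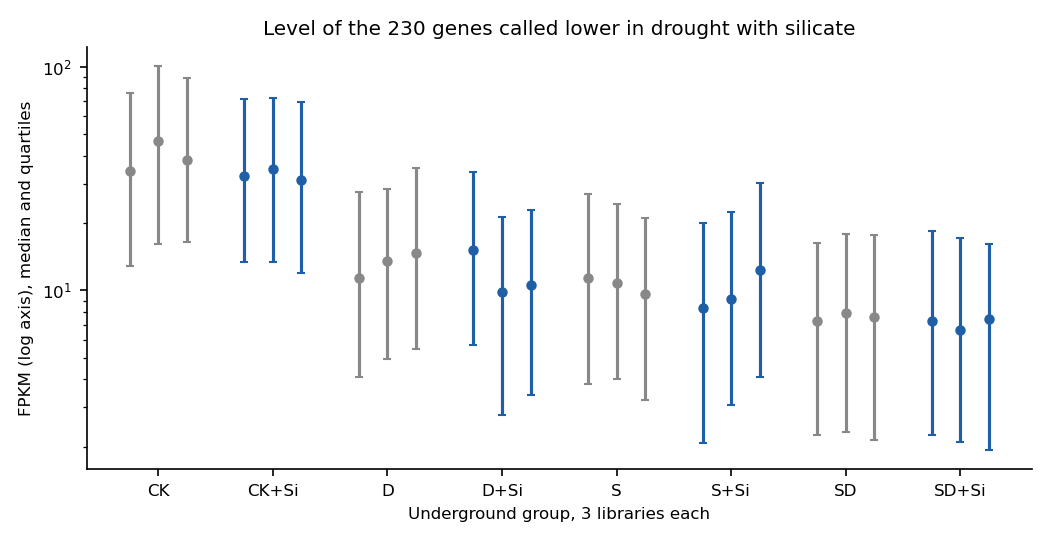
Median and quartiles of FPKM (log axis) over the 230 genes called lower in drought with silicate, for each of the 24 underground libraries; blue marks silicate and grey no silicate. The medians run from 31.0 to 34.8 FPKM in the controls with silicate and from 9.84 to 15.2 FPKM in drought with silicate, and every stressed library lies under every control library. The genes were chosen on the control and drought libraries with silicate.

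In aerial parts of silicate-fed seedlings drought changed 32 of 23389 genes (0.137%), 5 higher and 27 lower (0.115%). Of those 27 genes, 17 were called lower underground too, which is 63.0% of the aerial list, against 0.94% of all underground genes tested. These 17 are 7.76% of the 219 underground falls that could be tested above ground. Of these 219 genes, 196 were lower in aerial parts (89.5%, against 47.3% of all aerial genes tested). In aerial stress without silicate, 76 of the 219 were called lower in drought (34.7%, background 1.66%), 120 in salt (54.8%, background 3.97%) and 165 in salt-drought (75.3%, background 16.2%). No rise was called in both parts. The genes with the largest fall in both parts were Glyur000195s00012851 and Glyur000529s00019343. Glyur000195s00012851 (Scaffold00195, 131634 to 132452, minus strand, single exon) was at 78.0, 41.4 and 48.8 FPKM in underground control and 10.4, 1.67 and 4.92 FPKM in underground drought. In aerial parts it was at 41.6, 29.7 and 21.4 FPKM in control and 2.22, 1.58 and 1.59 FPKM in drought. The groups were apart in both parts, with a change of -3.28 underground (SE 0.62, adjusted p = 0.0107, limma) and -3.47 above ground (SE 0.52, adjusted p = 0.0155). Underground the call was lost without control library 1, without drought library 2 or 3 and with only the 2 groups in the fit (adjusted p from 0.0523 to 0.0863, limma). Glyur000529s00019343 fell by 2.48 in aerial parts (SE 0.42, adjusted p = 0.0168, limma). The aerial count rested on few libraries, at 0 and 4 genes without aerial control library 1 or 2, 15 and 1 without aerial drought library 1 or 2, and 0 with only the 2 groups in the fit (limma; 1752 genes at an unadjusted p under 0.05 in the fit of all 24 aerial libraries).

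The drought change on the log2(FPKM + 1) scale was called different between the parts in 3 genes (0.0114% of 26335). All 3 entered the test through underground libraries and were too weakly expressed above ground to be tested there. This scale therefore left almost no room for an aerial fall. These calls therefore do not show that the genes responded differently in the 2 parts, and the values are given as a description. Glyur000130s00006880 (Scaffold00130, 9466 to 9978, plus strand, single exon, overlapping a gene on the other strand) fell from 13.0, 19.3 and 11.6 to 3.05, 1.56 and 2.12 FPKM underground (-2.26, SE 0.26, adjusted p = 0.000203, limma). Glyur000051s00003460 (Scaffold00051, 422812 to 423267, minus strand, single exon) fell from 13.5, 14.8 and 7.78 to 1.86, 3.26 and 2.29 FPKM (-1.88, SE 0.21, adjusted p = 0.000203, limma). Both were under 1 FPKM in all 6 aerial libraries of silicate-fed control and drought seedlings. Glyur000051s00003460 was at 0.449 ± 0.0783 FPKM in aerial control and 0.119 ± 0.205 FPKM in aerial drought. The third gene, Glyur000668s00041808 (Scaffold00668, 108269 to 110757, 3 exons, overlapping a gene on the other strand), was below the expression minimum for named genes and was picked after its values were seen. It fell from 1.73 ± 0.338 to 0.214 ± 0.101 FPKM underground and was at most 0.166 FPKM in the 6 aerial libraries. Its underground call was lost with only the 2 groups in the fit (adjusted p = 0.0553, limma). The gene it overlaps, Glyur000668s00041809, was also called lower underground, from 5.67 ± 1.24 to 0.450 ± 0.407 FPKM (-2.23, SE 0.26, adjusted p = 0.000203, limma). Whether the exons of these 2 genes overlap was not computed. Where they do, reads without strand information cannot be told apart. With a pseudocount of 0.1 the difference between parts went from -1.50 to -0.51 (SE 0.72) in Glyur000051s00003460, from -2.43 to -3.24 (SE 0.85) in Glyur000130s00006880 and from -1.07 to -2.02 (SE 0.67) in Glyur000668s00041808. None of these was called, and none with only the 4 groups in the fit (limma; 1213 genes at an unadjusted p under 0.05 in the fit of all 48 libraries).

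The genes that fell were poor in introns. Of the 229 with a gene model, 115 had a single exon (50.2%), against 14.9% of the 22979 annotated genes tested. The share called lower decreased with the number of exons, from 3.37% of genes with 1 exon to 1.32% with 2, 0.749% with 3 to 5, 0.272% with 6 to 10 and 0.136% with over 10. The order was kept within classes of similar level: at a mean of 20 to 100 FPKM underground, 7.39% of 717 single-exon genes and 0.892% of 4597 other genes fell, and at 5 to 20 FPKM 3.36 and 0.546%. It was also kept at similar coding length, with 2.58 and 0.677% under 600 nt, 4.66 and 0.622% at 600 to 1200 nt and 3.61 and 0.502% at 1200 nt or more. Of single-exon genes that overlap no other gene 3.54% fell, and of those that overlap one on the other strand 2.81%. Of the 21 rises, 6 were single-exon genes (28.6%). Plant gene families with few or no introns include many ERF transcription factors and the auxin-responsive SAUR genes, and the files do not say whether the genes here belong to such families.

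Single-exon genes were also frequent among falls in the stresses without silicate, measured in other libraries of the same fit. They made up 35.4% of the annotated falls in underground drought, 22.9% in salt and 23.2% in salt-drought. In aerial drought with silicate it was 11 of 27 falls (40.7%, against 14.5% of the aerial genes tested). For rises the share was 30.9% in drought without silicate, 13.8% in salt and 12.4% in salt-drought. No test of these shares was made.

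**Figure D5:**
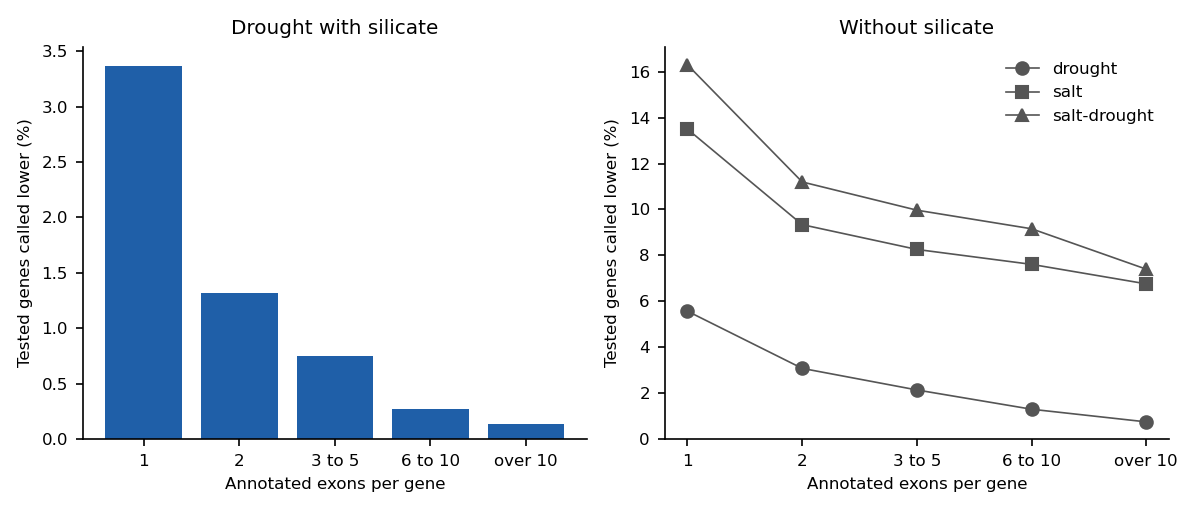
Percent of tested underground genes called lower, by the number of annotated exons, for drought with silicate (left, bars) and for drought, salt and salt-drought without silicate (right, points). In drought with silicate the share drops from 3.37% of single-exon genes to 0.136% of genes with over 10 exons.

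Genes typical of each plant part were counted separately. Of 764 genes enriched in aerial parts, 0 rose and 1 fell (limma). Enriched means at least 3 log2 units higher in unstressed aerial than underground libraries without silicate. The share that fell was 0.131%, against 0.94% of all genes tested, and of all genes tested 0.0858% rose. A class chosen for lower levels underground has less room to fall on the log2(FPKM + 1) scale. The median change of the 764 was 0.23, against 0.02 for all genes tested, and the median change of the 25 aerial markers was 1.06. Of 655 genes enriched underground, 7 fell (1.07%), a share near that of all genes tested, and 0 rose. New-gene rows gave 1 fall among 1499 tested. By level, the share that fell was lowest in genes with a mean under 1 FPKM (0.287%), where the log2(FPKM + 1) scale leaves little room to fall. It was 1.76% at 20 to 100 FPKM and 1.82% above 100 FPKM.

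The 250 called genes with a gene model lay on 203 scaffolds, and no scaffold held more than 3 of them. Of 14289 pairs of neighbouring genes in which both were tested, 13 pairs (0.091%) were called in the same direction and 0 in opposite directions. The 1.03% of single genes called is not the background for a share of pairs. The share for pairs of unrelated genes was not computed. The 13 pairs held 26 of the 250 genes. In 6 of the 13 the genes overlap on opposite strands, as do 1071 of all 14289 pairs. Of such overlapping pairs 0.56% were called in the same direction. Overlap was taken from the start and end of each gene, introns included, and overlap of exons was not computed. Only where exons overlap can reads without strand information not be assigned to one gene or the other. How strand was handled is not stated. No run was longer than 2 genes. The pair with the largest fall was Glyur000098s00007983 and Glyur000098s00007984 on Scaffold00098. The first has 21 exons from 103495 to 117710 on the minus strand, and the second lies within it on the plus strand (104191 to 104840). It is one of the 6 overlapping pairs. Glyur000098s00007983 stood at 279, 222 and 208 FPKM in control and 61.5, 35.7 and 32.8 FPKM in drought (-2.47, SE 0.33, adjusted p = 0.00109, limma). It kept its call in each of the 14 alternatives. Glyur000098s00007984 stood at 5.43, 4.47 and 5.63 FPKM in control and 2.20, 0.598 and 0.716 FPKM in drought (-1.58, SE 0.34, adjusted p = 0.0266, limma), and lost its call in 8 of 14 (adjusted p up to 0.173), among them those without any one library other than drought library 1. In the other stresses with silicate, Glyur000098s00007983 was at 20.5 ± 13.4 FPKM in salt and 10.3 ± 0.591 FPKM in salt-drought. The 2 rising neighbours on Scaffold00017 described above are another of the 13 pairs.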

How the data were processed

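The authors deposited FPKM values for every gene in 1 table. The submitters' processing notes name TopHat2 and Cufflinks without a version. Genome build and strand handling are not given in the sources used here. Both nanopore and Illumina library preparation are described per the labels' protocols, without saying which gave the values. Positions are 1-based coordinates of the deposited MAKER gene models (34445 genes on 4853 scaffolds), and 9485 genes overlap another. An exact 0 can be a failed estimate.

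Tests used limma 3.58.1 under R 4.3.3 with a mean per group and its trend and robust options, on log2(FPKM + 1). All 24 underground libraries entered 1 fit, all 24 aerial ones another, and all 48 the test between parts. A gene was tested where 3 or more libraries of the fit reached 1 FPKM. The code was tested on simulated data. Depth was estimated from the steps of low values in single-transcript genes of at least 1500 nt. Of these values 43.3 to 57.4% lay within 0.1 of a whole number in the 6 libraries (20% by chance), so fragment counts were not recovered.

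For a pair of groups, the 2 called genes with the largest rise and fall, without overlap and with a mean of at least 5 FPKM in one group, were named. For genes called in both of 2 comparisons, the largest smaller change decided. For the test between parts, the smallest adjusted p with a mean of at least 5 FPKM decided. The longest run of neighbours was also named. Members, lists and rules were chosen with earlier results of these data known. Classes by exon number and length were added after seeing the data. No gene list by function could be applied.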

Additional observations from a re-analysis of the deposited data

Results flagged for a closer look

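In 3 genes the drought change of silicate-fed seedlings on the log2(FPKM + 1) scale was called different between underground and aerial parts (limma). The difference was -2.43 (SE 0.38) in Glyur000130s00006880, -1.50 (SE 0.24) in Glyur000051s00003460 and -1.07 (SE 0.17) in Glyur000668s00041808, each with an adjusted p of 0.00268. All 3 were under 1 FPKM in the 6 aerial libraries of these groups, where this scale allows almost no fall. The calls therefore do not show a different response of the 2 parts. With a pseudocount of 0.1 none was called (adjusted p = 0.653, 1 and 0.807 in that order, limma).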

How the results depend on the processing

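The 251 calls in underground drought with silicate became 123 with only the 2 groups in the fit, and ranged from 91 to 311 when 1 library was left out. Rescaling, a pseudocount of 0.1, other filters, plain limma and leaving out the underground salt group, chosen after seeing the data, gave 206 to 276 calls. The silicate interaction gave 0 calls, 1 without a filter on low values, 4 with only the 4 groups, 1 without the trend and robust options, and 0 to 2 when 1 library was left out. Aerial drought with silicate gave 32 calls, 0 with only the 2 groups, and 0 to 34 when 1 library was left out. The difference between parts gave 3 calls, 0 with a pseudocount of 0.1, 0 with only the 4 groups, and 3 to 7 when 1 library was left out. A fit of fewer groups has fewer libraries to estimate the spread. The cause of the differences was not tested for any setting. No named gene changed sign.

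With the replicate number as a block, 216 genes were called in underground drought with silicate, and 0, 31 and 3 in the other tests. Same-numbered libraries of the 2 groups deviated with r of 0.01, 0.11 and -0.02, against -0.0051, -0.052 and 0.0095 for libraries of other numbers. No clear pairing by number showed, which does not establish that there is none. At the rough depths given, intervals from counts could not be set.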
